A study of Mus musculus with 6 samples.

Results

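The transcriptome of a Lingo1 knockout line was set against that of its parental line, both from wounded monolayers of MLE12. MLE12 is a line of mouse lung epithelium immortalized with a viral oncogene. The comparison used 1 library of each and every gene identifier of the deposited count table, 46078 in all, of which 12078 reached a mean level of at least 1 CPM over the 6 libraries of the series and were tested. CPM is the count of a gene per 1000000 reads after scaling between libraries. The groups used here were parental MLE12 left intact, parental MLE12 collected 24 hours after a pipet-tip scratch, and Lingo1, Lingo2, Lingo3 and TROY knockout MLE12, each collected 24 hours after the same wound, with 1 library per group. All 5 scratched cultures therefore share the wound, and no intact knockout culture was analysed here. The sources used here do not give how the knockouts were made or whether the Lingo1 line is 1 clone, so a property of the line and a property of the genotype cannot be told apart.

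LINGO1 is a transmembrane protein with leucine-rich repeats and an immunoglobulin domain. It is best known from neurons and oligodendrocytes, where it joins the Nogo receptor and a co-receptor of the tumour necrosis factor receptor family (p75, encoded by Ngfr, or TROY, encoded by Tnfrsf19) and signals through RhoA and its kinases to restrain axon growth and myelination. Wounded epithelium closes by spreading and migration, and the immediate early genes of the Fos, Jun and Egr families respond to growth factors that signal through the kinase ERK. The comparison asks which transcripts of a wounded lung epithelial culture differ when Lingo1 is the labelled knockout.

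Because each group had 1 library, no test against the spread between cultures could be made and no p-value is given. Folds are ratios of scaled counts. The range in parentheses after a fold is its 95% interval, obtained by the exact Clopper-Pearson method from how the reads of a gene divided between both libraries. Intervals and floors cover counting error only. A gene is called higher or lower, or said to pass the size rule, where its fold was at least 2 and the interval stayed beyond 1.5. The bare words higher and lower always mean the Lingo1 knockout against the scratched parental library unless another library is named.

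The targeted gene itself was not reduced. Lingo1 (ENSMUSG00000049556, chromosome 9, 56618475 to 56796468, minus strand, GRCm38) was measured at 27.6 and 24.5 CPM in the unscratched and scratched parental libraries, 57 in the Lingo1 knockout, and 52, 51.3 and 34.7 in the Lingo2, Lingo3 and TROY knockouts. It was 2.33-fold higher (2.13 to 2.55) in its own knockout. A transcript of a disrupted gene can persist, and the sources used here do not name the targeted part of the gene, so the level of Lingo1 checks nothing about the label. Lingo2 had 0 counts in every library and Lingo3 had 0 in 5 of 6. Of the 18 genes listed for LINGO and Nogo receptor signalling, 10 were tested and Lingo1 alone passed the size rule, with a list median log2 ratio of 0.23 against 0.01 over all 12078 genes. Rtn4, which encodes the ligand Nogo, had a ratio of 1.15 (1.1 to 1.19), the receptor homologue Rtn4rl1 one of 0.97 (0.873 to 1.08), and the effectors Rhoa, Rock1 and Rock2 ratios of 1.06 (1.03 to 1.09), 0.969 (0.922 to 1.02) and 1.0 (0.977 to 1.03). The co-receptor gene Ngfr was under the filter, with 11 counts in the parental and 32 in the Lingo1 knockout library.

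The libraries held between 28109825 and 30776294 reads counted in genes, and a floor of 3 counts stands at 0.0986 CPM for the scratched parental and at 0.108 CPM for the Lingo1 knockout library. The 2 parental libraries differed by the size rule in 10 of 12078 genes (0.0828%), although the scratch lies between them. The scratched parental library stood apart in a few endothelial transcripts: Vwf, Kdr, Cdh5 and Cldn5 had 169, 74, 20 and 11 counts there and 16, 12, 0 and 0 in the unscratched one. Tek, of the same list of 7 endothelial markers, went the other way, from 102 CPM unscratched to 86.5 CPM scratched. The list summed to 103 and 95.7 CPM in that order. The part of Vwf, Kdr, Cdh5 and Cldn5 in the results was not tested, and the unscratched parental library serves below as a further control. Mitochondrial transcripts made up between 2.11% and 2.72% of counts over the 6 libraries.

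In all, 437 of 12078 genes passed the size rule between the Lingo1 knockout and the scratched parental library (3.62%), 235 higher (1.95%) and 202 lower (1.67%). Every count of called list members below stands beside these shares of all tested genes, 1.95% higher and 1.67% lower. The middle of the distribution barely moved: 6186 genes had a ratio above 1, and the quartiles of the log2 ratio were -0.18 and 0.20. Higher and lower genes were expressed at modest levels, with a median of 7.24 CPM for the higher and 3.09 CPM for the lower ones, against 36.3 CPM over all tested genes. Among genes with a mean above 100 CPM, 16 were higher and 6 lower. Those higher included Col1a1, Tek, Fos, Anxa8, Ank, Sik1, Aacs, Plxnb3, Scd1, Egr1, Id1, Krt14, Junb, Sftpb and Trabd2b, and those lower were Neat1, Malat1, Xist, Rsrp1, Luc7l3 and the ribosomal RNA gene CT010467.1, of which Ank, Sik1, Aacs, Trabd2b, Luc7l3 and CT010467.1 are named after their values were seen.

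**Figure D1:**
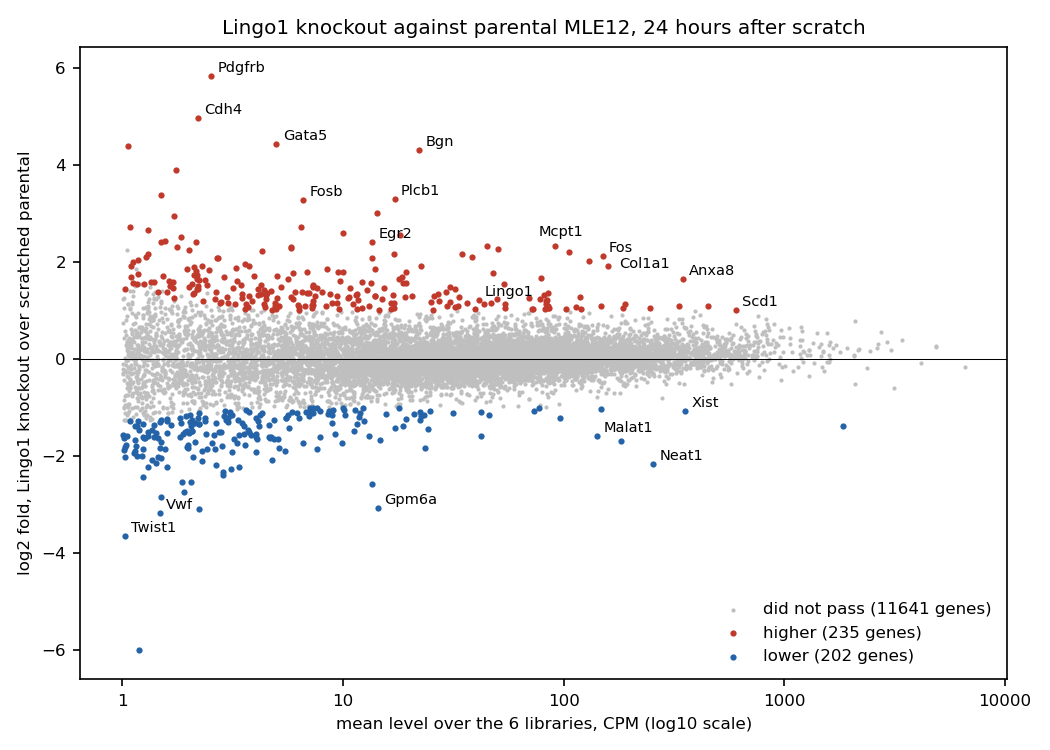
Each point is 1 of 12078 tested genes, with its mean level over the 6 libraries in CPM on a log10 axis and its log2 ratio of the Lingo1 knockout to the scratched parental library on the vertical axis; a gene with 0 counts in 1 library is drawn at a floor of 3 counts. The 235 higher genes are red, the 202 lower genes blue and the rest grey, and most coloured points lie at low levels, with Fos, Col1a1, Anxa8 and Scd1 higher and Neat1, Malat1 and Xist lower among abundant transcripts.

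Immediate early genes of the AP-1 family were higher. AP-1 is the dimeric transcription factor made of Fos and Jun family proteins, and 4 of its 10 tested genes were higher, none lower, and the list median was 0.59. They were Fos, Fosb, Junb and Atf3, a stress-induced member of the same leucine zipper class. The 250 bases upstream of their transcription start sites are shown because these 4 members moved together. The sequences are those of RefSeq on GRCm38.p6, read 5′ to 3′ on the strand of the gene. Capitals mark TGACG, or CGTCA on the other strand, the half-site of the cAMP response element.
Fos, chr12:85473640-85473889, plus strand: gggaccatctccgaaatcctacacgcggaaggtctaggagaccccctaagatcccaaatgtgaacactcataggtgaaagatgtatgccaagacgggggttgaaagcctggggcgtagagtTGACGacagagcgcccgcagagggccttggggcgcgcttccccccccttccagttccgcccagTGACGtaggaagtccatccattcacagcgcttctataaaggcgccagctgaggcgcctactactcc
Fosb, chr7:19310046-19310295, minus strand: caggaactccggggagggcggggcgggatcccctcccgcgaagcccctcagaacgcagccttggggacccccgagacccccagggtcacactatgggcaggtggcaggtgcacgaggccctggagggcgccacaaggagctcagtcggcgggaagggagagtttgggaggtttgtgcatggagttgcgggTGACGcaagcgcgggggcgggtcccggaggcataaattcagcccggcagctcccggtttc
Junb, chr8:84978749-84978998, minus strand: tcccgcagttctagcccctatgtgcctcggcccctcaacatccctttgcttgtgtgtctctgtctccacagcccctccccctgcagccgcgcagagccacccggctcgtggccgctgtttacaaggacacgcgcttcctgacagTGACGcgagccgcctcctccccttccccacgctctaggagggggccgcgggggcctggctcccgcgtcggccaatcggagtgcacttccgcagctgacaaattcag
Atf3, chr1:191183334-191183583, minus strand: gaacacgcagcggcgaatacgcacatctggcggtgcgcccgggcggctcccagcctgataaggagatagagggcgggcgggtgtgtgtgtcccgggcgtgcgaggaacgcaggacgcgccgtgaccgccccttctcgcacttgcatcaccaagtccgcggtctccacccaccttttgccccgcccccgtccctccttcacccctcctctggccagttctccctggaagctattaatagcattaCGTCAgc
Each window held this half-site, which began 129 and 66 bases before the start of Fos, 60 before Fosb, 106 before Junb and 7 before Atf3. Both strands were searched, and 17.8% of the 32851 promoter windows of the same length in the RefSeq table hold the half-site. It was added to the search after the full cAMP response element, TGACGTCA, was not found in any of the 4 windows. The AP-1 site TGANTCA and the serum response element core (the CArG box) were not found in them either, and bases further upstream were not searched. The full element is present in 1.55%, the AP-1 site in 6.75% and the CArG box in 1.47% of all windows. A full element contains the half-site on both strands, and a match of letters is not evidence of binding. The 6 tested members of the list that did not pass were not searched. Whether the half-site goes with the higher level was therefore not tested.

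Fos stood at 42.4 and 48 CPM in the unscratched and scratched parental libraries, 208 in the Lingo1 knockout, and 196, 218 and 188 in the Lingo2, Lingo3 and TROY knockouts, and was 4.33-fold higher (4.09 to 4.59) in the Lingo1 knockout. Fosb ran, in the same order of libraries, at 1.19, 0.888, 8.59, 7.89, 9.91 and 11.1 CPM, which made it 9.68-fold higher (6.49 to 15). Atf3 was measured at 8.1, 10.2, 45.5, 46.4, 51.8 and 46.5 CPM and was 4.48-fold higher (3.95 to 5.09). In these 3 genes and in Junb, 2.2-fold (2.11 to 2.3) higher, each of the 4 knockout libraries lay above both parental ones. Other early response genes leaned the same way: 4 of 16 tested members of a list of Egr, Ier and related genes were higher, all 16 had a ratio above 1, and the median log2 ratio was 0.67. Egr2, a zinc finger transcription factor, was 5.33-fold higher (4.35 to 6.57). Zfp36, whose product tristetraprolin speeds the decay of AU-rich messenger RNAs, was 3.19-fold higher (2.97 to 3.44). Klf10, a transcriptional repressor induced by TGF-beta, was 2.34-fold higher (2.15 to 2.55), and Egr1 was 2.13-fold higher (2.07 to 2.2), from 201 to 428 CPM.

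Feedback inhibitors and ligands of the ERK pathway gave a mixed picture. Of 17 ERK feedback genes, 3 were higher and none lower, all 3 of them dual-specificity phosphatases that inactivate MAP kinases. Dusp5 was 3.2-fold higher (2.78 to 3.71), Dusp4 2.47-fold higher (2.05 to 2.98) and Dusp1 2.28-fold higher (2.13 to 2.44). Among the 11 tested genes of the epidermal growth factor family, 3 ligands were higher and the receptor gene Egfr was lower. Ereg, which encodes epiregulin, stood at 1.81, 1.91, 5.52, 4.92, 2.69 and 3.89 CPM in the 6 libraries, in the order used above, and was 2.9-fold higher (2.13 to 3.99). Hbegf was 2.21-fold higher (2.04 to 2.39) and Areg, the amphiregulin gene next to Ereg on chromosome 5, was 2.27-fold higher (1.57 to 3.33). Against the unscratched parental library neither Hbegf nor Areg passed the size rule, at 1.82 (1.69 to 1.96) and 2.14 (1.48 to 3.14).

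Egfr ran at 14.8, 13.5, 6.53, 6.51, 4.95 and 7.88 CPM and was 2.07-fold lower (1.73 to 2.48). Each knockout library was thus above both parental libraries for the 3 ligands and below both for Egfr. The other ERBB receptors tested did not pass, with ratios of 1.05 (1.01 to 1.1) for Erbb2 and 1.35 (1.26 to 1.45) for Erbb3. Of 12 genes of MET, RON and fibroblast growth factor signalling, the receptor gene Mst1r (RON) and its ligand Mst1 were both higher, at 3.76-fold (2.68 to 5.36) and 3.27-fold (2.33 to 4.67). Fgf7, the gene of keratinocyte growth factor, a mesenchymal ligand for epithelial receptors, was 4.25-fold lower (2.53 to 7.52), from 2.76 to 0.65 CPM.

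**Figure D2:**
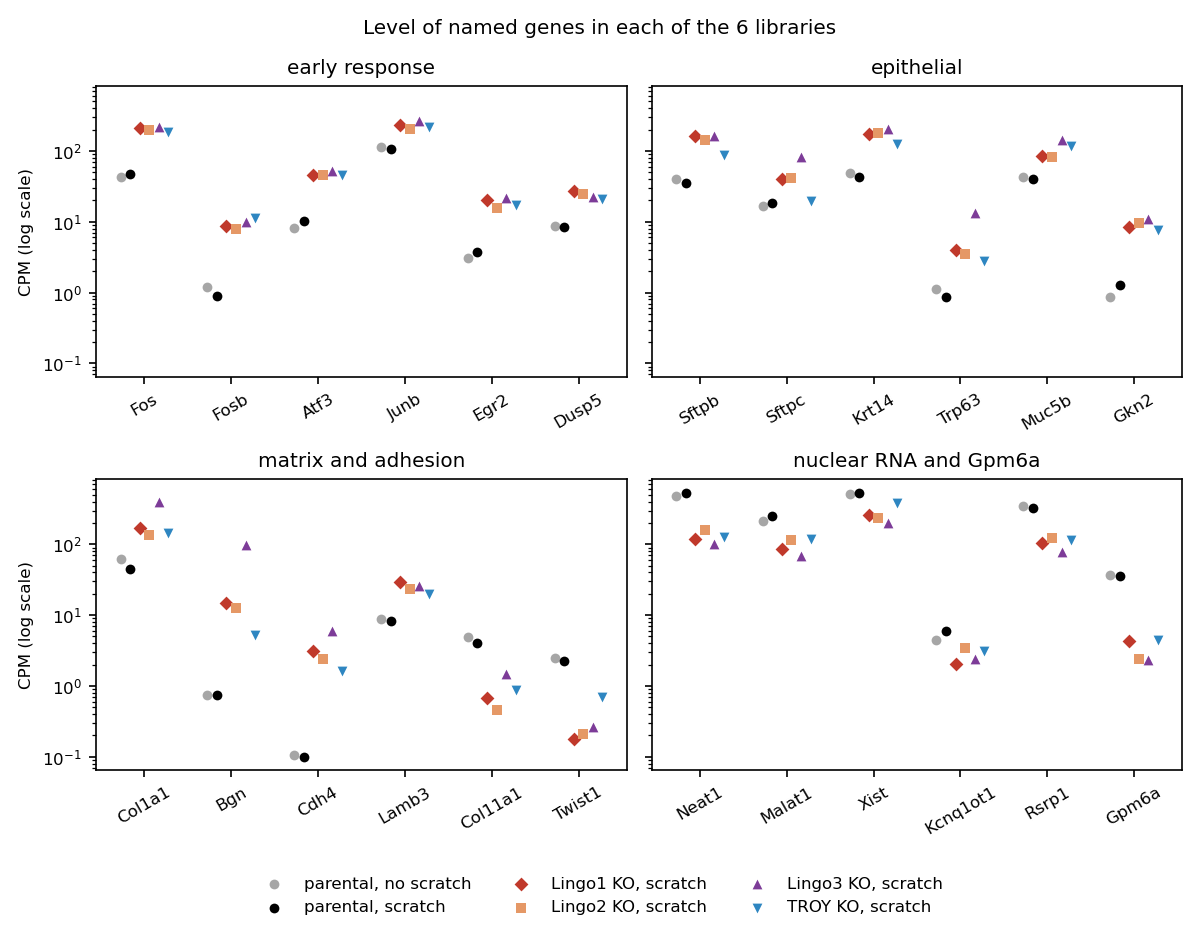
Levels in CPM on a log axis for 24 genes, each point being 1 library, with the 2 parental libraries in grey and black and the 4 knockouts in colour, and values under the floor of 3 counts drawn at that floor. Fos, Fosb, Atf3, Sftpb, Krt14, Bgn and Cdh4 are above both parental libraries in every knockout, and Neat1, Malat1, Rsrp1, Gpm6a, Col11a1 and Twist1 are below both.

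Genes listed for alveolar type II cells, the cells that make surfactant and renew the alveolar epithelium, were split. Of 7 tested, 3 were higher (Sftpb, Sftpc and the antigen presentation gene Cd74) and 1 was lower (the chemokine gene Cxcl15). Sftpb, which encodes surfactant protein B, stood at 40.1 and 35.6 CPM in the unscratched and scratched parental libraries, 164 in the Lingo1 knockout, and 144, 164 and 87 in the Lingo2, Lingo3 and TROY knockouts, and was 4.6-fold higher (4.3 to 4.92). Sftpc, the surfactant protein C gene, stood at 16.5, 18.3, 40.7, 42, 81.9 and 19.8 CPM and was 2.22-fold higher (2.01 to 2.46). For Sftpb the TROY knockout was the lowest of the 4 knockouts, and for Sftpc it lay next to the parental level while the Lingo3 knockout was far above the rest. In bulk RNA, more cells of a kind and more transcript per cell cannot be told apart.

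Abca3, the lipid transporter of lamellar bodies, had a ratio of 1.2 (1.15 to 1.249) and Lpcat1, an enzyme of surfactant phospholipid synthesis, one of 0.685 (0.66 to 0.711), neither past the rule. The lung chemokine gene Cxcl15 was 4.07-fold lower (2.3 to 7.67), from 2.2 to 0.541 CPM. Sftpd and Chil1 had 0 counts in all 6 libraries and Sftpa1 at most 1, so several defining type II transcripts were at or near 0 in every group. None of the 11 tested type I genes passed the rule, with a median log2 ratio of 0.18. Cav1, the caveolin gene, stood at 2015 CPM in the parental and 2958 CPM in the Lingo1 knockout library, a ratio of 1.47 (1.45 to 1.48), and Ager at 1.54 (1.51 to 1.58).

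Transcripts of other epithelia were also higher. Among 7 tested genes of keratins and Trp63, the transcription factor of basal cells, 3 were higher and the median log2 ratio was 0.75. Krt14, a basal keratin, stood at 49.1, 43.4, 175, 179, 203 and 127 CPM in the 6 libraries and was 4.03-fold higher (3.79 to 4.28). Trp63 was 4.69-fold higher (3.04 to 7.49), from 0.855 to 4.01 CPM, and Krt13 was 2.58-fold higher (1.92 to 3.51). Of a list of 26 mucin, trefoil, gastrokine and cornified envelope genes only 6 reached the filter, and 5 of those were higher.

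Gkn2, a gastrokine gene of the gastric surface that lung epithelium can also express, stood at 0.873, 1.28, 8.41, 9.55, 11.1 and 7.58 CPM and was 6.56-fold higher (4.66 to 9.46). The gel-forming airway mucin gene Muc5ac was 2.87-fold higher (2.07 to 4.03), and its neighbour Muc5b was 2.08-fold higher (1.94 to 2.23), the latter at 1.94 (1.81 to 2.08) against the unscratched library, short of the rule. Sprr1a and Sprr2a3, of the small proline-rich proteins that cross-link in squamous epithelium, were 2.26-fold higher (1.98 to 2.59) and 5.88-fold higher (4.72 to 7.4), but Sprr2a3 has near-identical paralogues among which reads may have been split. Genes that reach the filter only through a high knockout level had to differ, so the share of members higher in so short a list is not a measure of the list.

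Among 22 lung and endoderm transcription factors, 3 were higher and the median log2 ratio was 0.16, but -0.06 against the unscratched parental library. Gata5, a zinc finger factor of endoderm and heart, was low in both parental libraries. It stood at 0.244 and 0.263 CPM in the unscratched and scratched parental libraries, 5.63 in the Lingo1 knockout, and 6.93, 11.8 and 5.05 in the Lingo2, Lingo3 and TROY knockouts, and was 21.4-fold higher (10.6 to 50.5). Cebpa, a regulator of epithelial maturation in lung, was 2.65-fold higher (1.98 to 3.57). Id1, an inhibitor of basic helix-loop-helix factors and a target of BMP signalling, was 2.04-fold higher (1.92 to 2.15), and 1.77 (1.67 to 1.87) against the unscratched library, short of the rule. Nkx2-1, the lineage factor of lung epithelium, had a ratio of 1.02 (0.981 to 1.06).

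Collagen chains moved in both directions. Of 19 tested, 4 were higher and 3 lower, with a median log2 ratio of 0.54. Col1a1, the main chain of fibrillar collagen I, stood at 62.3 and 44.8 CPM in the unscratched and scratched parental libraries, 170.2 in the Lingo1 knockout, and 136, 398 and 146 in the Lingo2, Lingo3 and TROY knockouts, and was 3.8-fold higher (3.58 to 4.04). Its level in the Lingo3 knockout exceeded that in the other knockouts. Col18a1, a basement membrane collagen that carries endostatin, was 2.9-fold higher (2.67 to 3.16), and the short-chain collagen genes Col8a1 and Col8a2 were 2.5-fold higher (2.35 to 2.66) and 2.07-fold higher (1.69 to 2.54).

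The chains of the minor fibrillar collagen XI fell. Col11a1 stood at 4.85, 3.98, 0.686, 0.46, 1.48 and 0.864 CPM in the 6 libraries and was 5.8-fold lower (3.56 to 9.97), with all 4 knockouts below both parental libraries. Col11a2 was 2.15-fold lower (1.74 to 2.67) and Col20a1 2.8-fold lower (2.38 to 3.32). Against the unscratched parental library Col8a2 and Col11a2 no longer passed the rule, at ratios of 1.72 (1.42 to 2.09) and 0.513 (0.411 to 0.638). Fibroblast and pericyte markers, of which 2 of 4 tested were higher (Col1a1 and Pdgfrb), summed to 2579 CPM in the scratched parental library and 3386 CPM in the Lingo1 knockout. Col1a1 gave 44.8 and 170.2 CPM of these sums and Pdgfrb 0.0329 and 1.88 CPM. Most of each sum thus came from markers that did not pass the rule. Col1a2, the partner chain of Col1a1, had at most 3 counts in any library, and the part of such cells in the collagen result was not tested.

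Matrix glycoproteins and proteoglycans, 26 of them tested, included 4 that were higher and none lower. The list had a median log2 ratio of 0.43. Bgn, which encodes biglycan, a small leucine-rich proteoglycan, stood at 0.733 and 0.756 CPM in the unscratched and scratched parental libraries, 14.9 in the Lingo1 knockout, and 12.6, 98.3 and 5.29 in the Lingo2, Lingo3 and TROY knockouts. It was 19.8-fold higher (13 to 31.5), with the Lingo1 and Lingo2 knockouts close together and the Lingo3 knockout several-fold above them. Fbln2, a fibulin of elastic fibres and basement membranes, was 3.46-fold higher (2.73 to 4.4), and the osteopontin gene Spp1 was 4.25-fold higher (2.37 to 8.07). Ecm1 was 2.33-fold higher (2.18 to 2.48), and 1.84 (1.73 to 1.95) against the unscratched library, short of the rule.

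Lamb3 encodes a chain of laminin-332, the basement membrane laminin on which epithelia migrate. It stood at 8.93, 8.35, 28.9, 23, 25.8 and 20.1 CPM and was 3.46-fold higher (3.0 to 4.0). The alpha chain gene Lama3 had a ratio of 1.76 (1.57 to 1.98). Over all 22 integrin and laminin genes the median log2 ratio was 0.48, and Itgb8, the integrin subunit that activates latent TGF-beta, was 2.33-fold lower (1.85 to 2.96). Of 21 matrix proteases and their inhibitors none was higher and 2 were lower, the membrane metalloprotease gene Adam8 by 4.0-fold (2.37 to 7.09) and the proprotein convertase gene Pcsk5 by 2.17-fold (1.98 to 2.39).

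Cell adhesion genes gave the largest bound of any higher gene. Cdh4, the gene of R-cadherin (chromosome 2, 179442431 to 179899373, plus strand), had 1 count in the unscratched parental library and 0 after the scratch, against 85, 67, 184 and 49 in the Lingo1, Lingo2, Lingo3 and TROY knockouts. Set against the floor of 3 counts in the parental library, it was 31.1-fold higher in the Lingo1 knockout. The lower 95% counting bound, taken from the observed counts without the floor and used to rank it, was 24.8. In all 4 of 24 cadherin and junction genes were higher and none lower, and the list median was 0.23. Pkp1, a desmosomal plakophilin, was 3.46-fold higher (2.79 to 4.31), Cdh13, a cadherin without a cytoplasmic tail, was 2.53-fold higher (2.25 to 2.83), and the connexin gene Gjb5 was 3.8-fold higher (2.01 to 7.68). Cdh1, the E-cadherin gene, had a ratio of 1.65 (1.62 to 1.68).

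Mesenchymal genes gave 3 calls. Of 16 mesenchymal genes 2 were higher and 1 lower, and the median log2 ratio was 0.23. Twist1, a basic helix-loop-helix factor of mesenchyme, was near the floor in the knockout: it had 72 and 69 counts in the unscratched and scratched parental libraries and 5, 6, 8 and 21 in the Lingo1, Lingo2, Lingo3 and TROY knockouts, and was 12.6-fold lower (5.13 to 39.9). Snai1 was 2.09-fold higher (1.58 to 2.77), and 1.94 (1.48 to 2.57) against the unscratched library, short of the rule. Pdgfrb, the receptor gene that marks pericytes and fibroblasts, had 3 and 1 counts in the parental libraries and 52, 37, 348 and 13 in the knockouts in the same order. Its ratio of 57.1 (9.81 to 2298) has a wide interval because the scratched parental library held 1 count. Pdgfrb reached the filter only through the Lingo3 knockout, with 11.4 CPM there and 1.88 CPM in the Lingo1 knockout. Vim, the vimentin gene, had a ratio of 1.57 (1.55 to 1.6).

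Calcium-binding S100 and annexin genes included 3 higher and none lower of 20. Anxa8, an annexin of stratified and injured epithelia, stood at 152, 146, 458, 513, 456 and 349 CPM in the 6 libraries and was 3.14-fold higher (3.04 to 3.25), the knockouts all above the parental pair. S100a4 was 2.78-fold higher (2.2 to 3.54) and S100a14 2.17-fold higher (1.71 to 2.78). YAP and TAZ targets, read-outs of mechanical state and cell density, had none of 21 past the rule and a median log2 ratio of 0.35. The most abundant of them by CPM, Myof and Ccn1, had ratios of 1.42 (1.39 to 1.45) and 1.66 (1.62 to 1.69).

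Developmental pathways contributed single members rather than whole pathways. In the Wnt list 3 of 23 genes were higher: Sfrp2, a secreted Frizzled-related antagonist, at 4.98-fold (3.54 to 7.17), Lgr4, a receptor for R-spondins, at 2.54-fold (2.01 to 3.23), and Sfrp1, which had 3 parental and 21 knockout counts, at a ratio of 7.69 (2.29 to 40.2). Sfrp1 reached the filter only through the Lingo3 knockout, with 8.63 CPM there and 0.758 CPM in the Lingo1 knockout. Notch1 was 2.87-fold higher (1.63 to 5.25), the 1 call among 12 Notch genes. Inhba, the activin A subunit gene, was 2.18-fold higher (2.0 to 2.38), the 1 call among 23 genes of TGF-beta, BMP and activin signalling. Hedgehog genes had none of 7 past the rule.

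Insulin-like growth factor binding proteins Igfbp5 and Igfbp4 were 2.97-fold higher (2.6 to 3.39) and 2.26-fold higher (2.03 to 2.51), out of 13 genes of that pathway and with a list median of 0.44. Among 16 genes of PDGF, VEGF and TIE signalling, Flt1, a VEGF receptor gene, was 2.23-fold higher (1.9 to 2.61) and the ligand gene Vegfd 2.47-fold lower (1.76 to 3.51). Tek, the angiopoietin receptor gene otherwise typical of endothelium, stood at 102, 86.5, 185, 164, 186 and 161 CPM and was 2.14-fold higher (2.04 to 2.24). Against the unscratched parental library its ratio was 1.82 (1.74 to 1.9), short of the rule.

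Genes of neurons and axon guidance belong to the setting in which LINGO1 is best known. Of 44 axon guidance genes 2 were higher and none lower, and the median log2 ratio was 0.16. Plxnb3, a semaphorin receptor gene, stood at 128, 130.0, 269, 196, 165 and 228 CPM and was 2.07-fold higher (1.99 to 2.15), and the ephrin gene Efna3 was 2.28-fold higher (1.64 to 3.2), with a ratio of 1.49 (1.11 to 2.01) against the unscratched library, short of the rule. Of 16 neuronal genes 2 were higher and 1 lower. Gpm6a (chromosome 8, 54954843 to 55060871, plus strand), a membrane glycoprotein of neurite outgrowth, stood at 36.8 and 36 CPM in the unscratched and scratched parental libraries, 4.26 in the Lingo1 knockout, and 2.41, 2.3 and 4.45 in the Lingo2, Lingo3 and TROY knockouts, and was 8.45-fold lower (6.98 to 10.3), the largest bound among the ranked lower genes. Plcb1, a phospholipase C coupled to G proteins, stood at 2.55, 2.33, 22.9, 19, 40.3 and 15.7 CPM and was 9.82-fold higher (7.67 to 12.7), and Sez6l, a transmembrane protein with complement-type repeats, was 15-fold higher (7.33 to 35.5). Sez6l had 18 counts in the unscratched and 8 in the scratched parental library, and its ratio to the former was 6.26 (3.78 to 11).

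Serum and immune-type transcripts were higher in part. Of 11 complement and acute phase genes 5 were higher and none lower, and the list median was 0.59. Over all tested genes 1.95% were higher and 1.67% lower. The 11 were those of 30 listed genes that reached the filter. Against the unscratched parental library 4 of them were higher and 1 lower. Orm3, of the orosomucoid acute phase proteins, stood at 2.72, 2.6, 21, 24.3, 24 and 11 CPM in the 6 libraries and was 8.07-fold higher (6.37 to 10.3). Orm1 and Orm2 were 2.81-fold higher (2.51 to 3.16) and 2.92-fold higher (1.88 to 4.64), and reads may be split among these 3 similar neighbours on chromosome 4. The central complement gene C3 was 3.48-fold higher (2.7 to 4.53). C1s1 was 2.22-fold higher (1.57 to 3.18), and 1.41 (1.04 to 1.93) against the unscratched library, short of the rule.

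Mast cell proteases were higher while several other transcripts of mast cells were at or near 0. Mcpt1 stood at 25.2, 33.8, 169, 159, 59.5 and 99.9 CPM and was 5.01-fold higher (4.68 to 5.36), Mcpt2 was 2.07-fold higher (1.8 to 2.39) and the chymase gene Cma1 2.53-fold higher (1.93 to 3.33). The mast cell markers summed to 46.3 and 57.9 CPM in the parental libraries and 210.4 CPM in the Lingo1 knockout, with 3 of 4 tested higher. The other tested marker did not pass, at a log2 ratio of 0.12. Tpsb2 and Fcer1a had 0 counts in all 6 libraries, and Cpa3 and Ms4a2 at most 1. Cd74 and H2-DMa, of class II antigen presentation, were 3.59-fold higher (2.29 to 5.8) and 2.34-fold higher (1.57 to 3.54), the latter at 1.4 (0.988 to 1.98) against the unscratched library, short of the rule. Of 21 tumour necrosis factor receptors and ligands none was higher and 2 were lower, the death receptor gene Tnfrsf25 by 3.61-fold (2.93 to 4.47) and Tnfrsf4 by 3.04-fold (1.84 to 5.21). None of 15 chemokine and cytokine genes passed, and of 29 interferon response genes Oas1b alone did, 2.37-fold lower (1.62 to 3.55).

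Lipid synthesis genes shifted together by small amounts. All 33 of 33 tested genes of cholesterol and fatty acid synthesis had a ratio above 1, with a median log2 ratio of 0.63 against 0.01 over all genes, and 3 passed the size rule. Acss2, which makes acetyl-CoA from acetate, was 2.98-fold higher (2.54 to 3.49), the stearoyl-CoA desaturase gene Scd1 2.0-fold higher (1.95 to 2.05) and the elongase gene Elovl6 2.05-fold higher (1.92 to 2.19). Scd1 stood at 324, 347, 693, 623, 892 and 736 CPM. With the unscratched parental library as control 6 of the list passed, and with total counts as the scaling 1 did. Between the parental libraries the median of the list was 0.10.

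Other metabolic and stress lists gave few calls. Of 30 p53 targets, Cdkn1a, the cell cycle inhibitor p21, alone was higher: it stood at 5.3, 4.64, 19.7, 15.2, 20.5 and 15.9 CPM and was 4.24-fold higher (3.52 to 5.14). Atp6v0a4, a proton pump subunit of specialised epithelia, was 4.27-fold higher (3.77 to 4.86), from 10.1 to 43 CPM, while the other 19 tested subunits did not pass and the list median was -0.19. Slc7a3, a cationic amino acid transporter gene in the stress response list, was 5.27-fold lower (3.6 to 7.92). Gstp1 was 2.42-fold higher (1.68 to 3.52) among 25 NRF2 targets. The potassium channel gene Kcnn4 was 2.52-fold higher (1.78 to 3.63), and 1.93 (1.39 to 2.7) against the unscratched library, short of the rule.

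Retinoid genes split, with Stra6, a retinol transporter gene that had 1 parental and 19 knockout counts, at a ratio of 20.9 (3.32 to 867), and with Rdh10, a retinol dehydrogenase gene, 2.37-fold lower (2.11 to 2.66). Stra6 reached the filter only through the Lingo3 knockout, with 4.46 CPM there and 0.686 CPM in the Lingo1 knockout. Rdh10 did not pass against the unscratched library, at a ratio of 0.534 (0.473 to 0.604). Proliferation lists had no call: none of 28 S phase genes (median log2 ratio -0.09) and none of 28 mitotic genes (0.06), with ratios of 1.11 (1.08 to 1.13) for Mki67 and 0.988 (0.97 to 1.01) for Mcm2. Glycolysis and hypoxia genes had none of 33 past the rule but a median of 0.30, while nuclear oxidative phosphorylation genes (-0.05), ribosomal protein genes (-0.04) and heat shock genes (0.06) also had none. Of 49 lists 43 had a median above that of all genes, and the lists hold 103 of the 437 called genes.

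**Figure D3:**
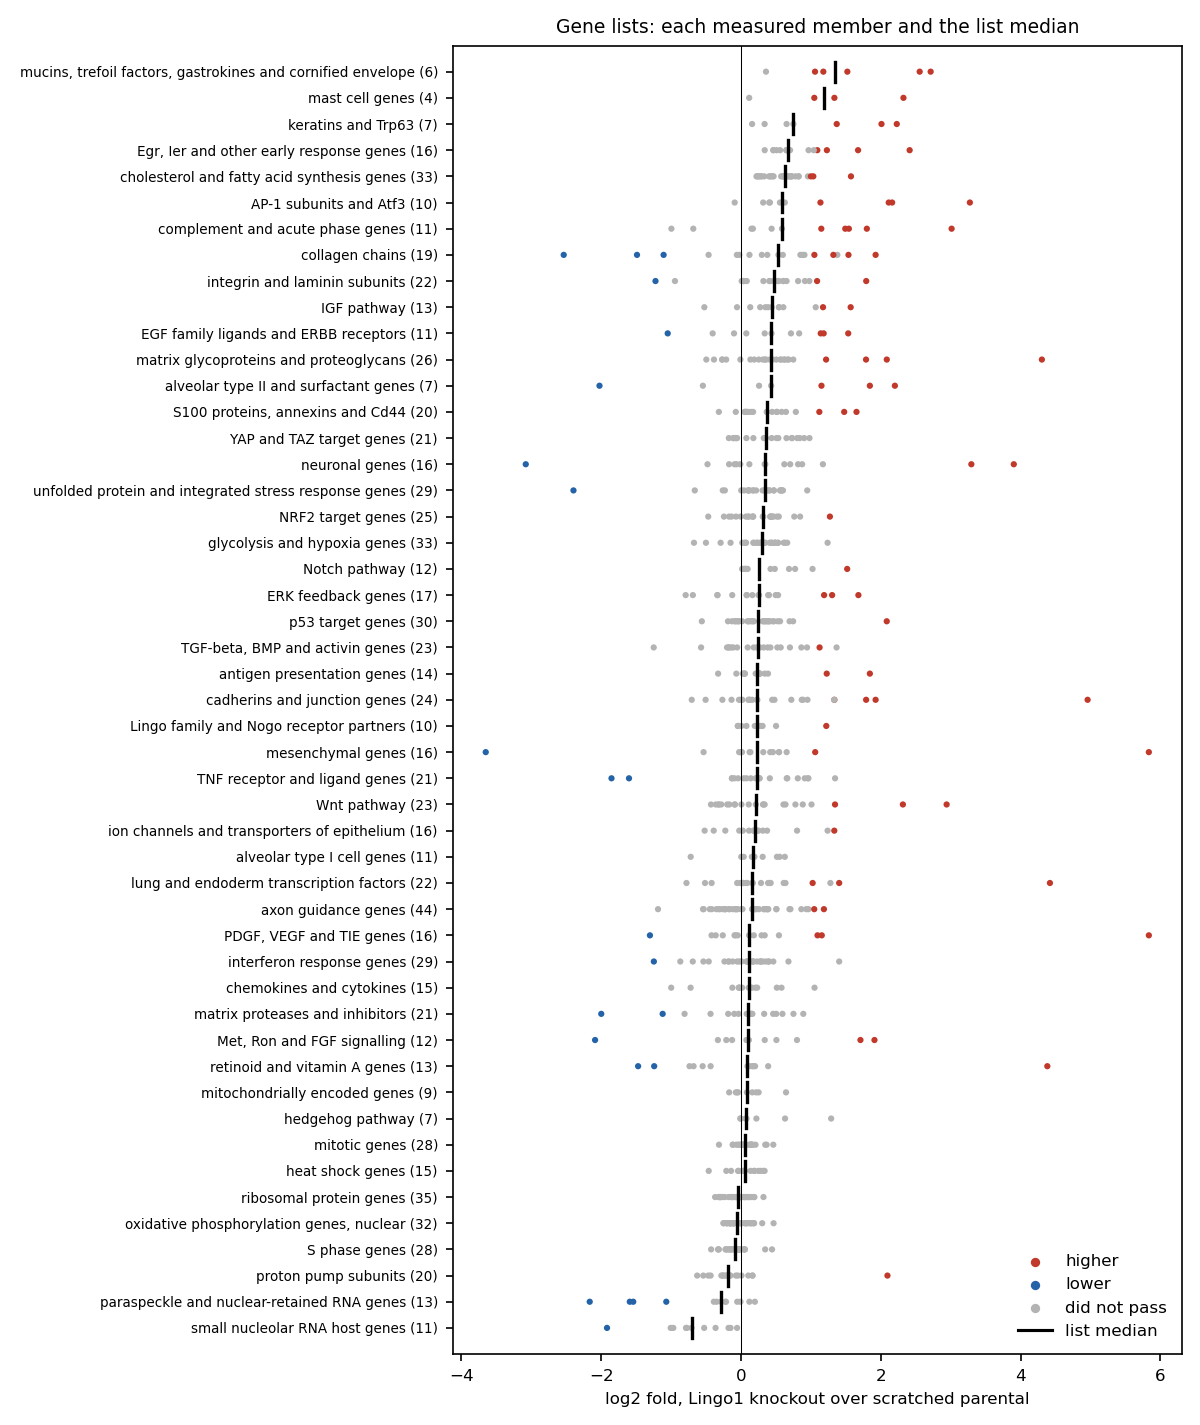
Log2 ratio of the Lingo1 knockout to the scratched parental library for every tested member of each gene list, ordered by the list median (black bar), with the number of tested members in parentheses and calls in red (higher) or blue (lower). Lists of mucins, mast cell genes, keratins and early response genes have the highest medians, and the lists of nuclear-retained RNAs and small nucleolar RNA host genes the lowest.

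The ranked genes with the largest bounds outside these lists were of varied function. On the higher side Susd2, a sushi-domain membrane protein gene, stood at 22, 15.8, 76.2, 71.3, 65.8 and 51.7 CPM in the 6 libraries and was 4.83-fold higher (4.37 to 5.34). Nmnat2, an enzyme of NAD synthesis that protects axons, was 5.02-fold higher (4.46 to 5.66), and Galnt15, a glycosyltransferase gene, was 10.4-fold higher (4.51 to 29.6). Galnt15 reached the filter only through the Lingo3 knockout, with 4.53 CPM there and 2.06 CPM in the Lingo1 knockout. On the lower side Slc16a4, of the monocarboxylate transporter family, stood at 3.28, 3.12, 0.433, 0.885, 0.558 and 0.698 CPM and was 7.21-fold lower (3.94 to 14.4). The muscle gene Mss51 was 4.2-fold lower (3.21 to 5.58), the sperm membrane gene Spaca6 3.58-fold lower (3.19 to 4.03), and the axonemal genes Rsph10b and Dnah11, of radial spokes and dynein arms, 4.53-fold lower (3.08 to 6.84) and 3.3-fold lower (2.76 to 3.96). 

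Vwf was second among the ranked lower genes, at 9.05-fold (5.49 to 15.9) lower, but the call was lost with the other control. It stood at 0.558 and 5.56 CPM in the unscratched and scratched parental libraries, 0.614 in the Lingo1 knockout, and 0.389, 1.21 and 0.499 in the Lingo2, Lingo3 and TROY knockouts, so that the scratched parental library alone was high. Against the unscratched parental library its log2 ratio was 0.14.

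The lower genes held many long non-coding RNAs. Of 383 tested long non-coding genes 66 were lower (17.2%) and 5 higher (1.31%), with a median log2 ratio of -0.30, while of 11451 protein-coding genes 124 were lower (1.08%) and 229 higher (2.0%), with a median of 0.01. The 5 were A330074K22Rik, C230014O12Rik, Gm10010, Gm12349 and Gm43672. Of 190 pseudogenes 6 were lower and 1, Mrgprb11-ps, was higher. Calls also varied with level: at a mean of 1 to 5 CPM 7.72% of tested genes were lower and 5.53% higher. Above 100 CPM these shares were 0.23% and 0.614%. The gene types were not matched for level. Neat1, the scaffold RNA of paraspeckles (chromosome 19, 5824708 to 5845478, minus strand), stood at 479.8 and 537 CPM in the unscratched and scratched parental libraries, 119.7 in the Lingo1 knockout, and 158, 99.5 and 129 in the Lingo2, Lingo3 and TROY knockouts, and was 4.48-fold lower (4.32 to 4.65). Malat1, its neighbour and an RNA of nuclear speckles, stood at 210.1, 254, 84.5, 116, 68.9 and 118 CPM and was 3.01-fold lower (2.88 to 3.16). Xist, the RNA that coats the inactive X chromosome, was 2.1-fold lower (2.04 to 2.16), from 537 to 256 CPM, and Kcnq1ot1, an antisense RNA of an imprinted domain, was 2.91-fold lower (2.15 to 4.0). In each of these 4 RNAs all knockout libraries lay below both parental ones.

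The genes of the paraspeckle proteins Sfpq, Nono and Pspc1 did not pass the rule, with ratios of 0.764 (0.742 to 0.787), 1.15 (1.12 to 1.18) and 0.785 (0.735 to 0.839). Of 11 genes listed as hosts of small nucleolar RNAs none had a ratio above 1, the median log2 ratio was -0.71 and 1 passed the rule, Snhg20, which was 3.78-fold lower (2.8 to 5.17). Without strand information, an antisense RNA and the gene it overlaps cannot be told apart. The share of uniquely aligned reads that fell in no counted feature moved with these genes: its value was 5.44% in the Lingo1 knockout (exact Clopper-Pearson 95% limits 5.44% and 5.45%), 8.02% in the parental culture with a scratch (8.02% and 8.03%) and 7.80% in the one without (7.79% and 7.81%), with 6.41%, 4.98% and 6.2% in the Lingo2, Lingo3 and TROY knockouts. Over all genes of the table, the long non-coding class took 0.657% of counts of the scratched parental library and 0.443% of those of the Lingo1 knockout. The part of that share in the lower non-coding genes was not tested.

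**Figure D4:**
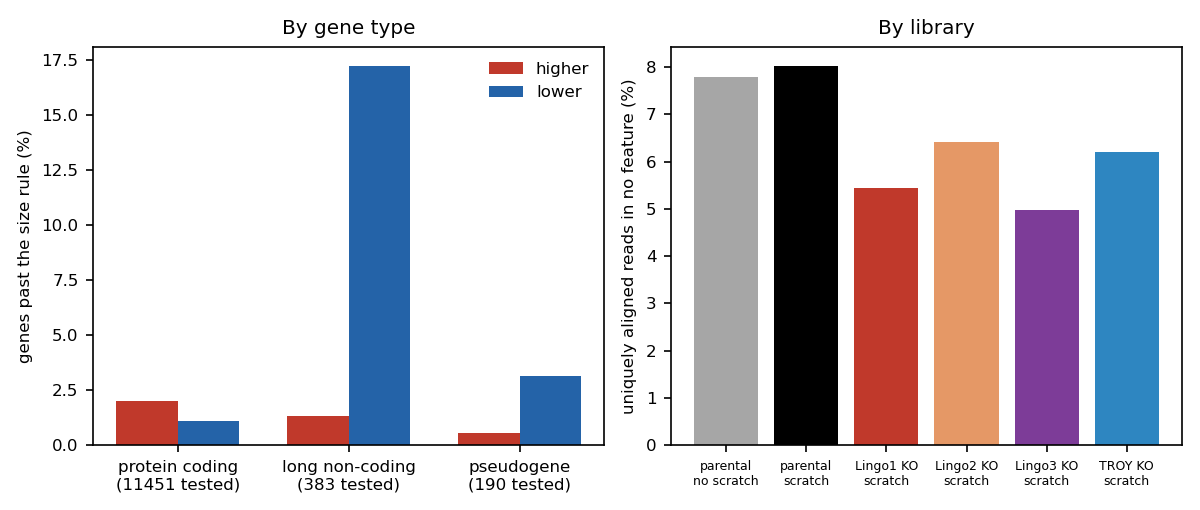
Left, the percent of tested genes of each type that were higher (red) or lower (blue) in the Lingo1 knockout against the scratched parental library. Right, the percent of uniquely aligned reads in no counted feature, 1 bar per library, at 7.80% and 8.02% in the parental libraries and between 4.98% and 6.41% in the knockouts.

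Marker genes of other cell types were read in full beside these results. Alveolar type I markers were all detected, with a summed level of 3717 CPM for the scratched parental and 5165 CPM for the Lingo1 knockout library, and mesothelial markers summed to 2186 and 2660.0 CPM, with Upk3b and Msln high in all 6 libraries. Of the mesothelial genes Lrrn4 alone passed the rule, 3.6-fold higher (3.03 to 4.28). Endothelial markers summed to 95.7 and 186 CPM, 86.5 and 185 of it Tek, while Emcn had 0 counts in both libraries and Pecam1 8 and 9. Airway markers, 4 of 5 tested higher, summed to 46.2 and 101 CPM. The leukocyte gene Adgre1 was at 0 in both libraries, as were the neuronal genes Snap25 and Nefl. The tested neuron markers Map2 and Tubb3 stood at 194 and 210 CPM and at 12.5 and 19.2 CPM, neither past the rule. Tubb3 did pass against the unscratched library, at a ratio of 2.01 (1.73 to 2.33). The tested leukocyte markers Cd14 and Cd68 stood at 2.27 and 2.78 CPM and at 1.71 and 2.24 CPM. Tagln, the 1 tested smooth muscle marker, stood at 2.79 and 2.74 CPM. Cd14, Cd68 and Tagln did not pass.

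The Lingo1 knockout was then set directly against each other knockout, comparisons that share no parental control. Against the Lingo2 knockout 2 of 12078 genes passed (0.0166%), both lower. They were the ribosomal RNA genes CT010467.1, named after its values were seen, and n-R5-8s1. The quartiles of the log2 ratio between these 2 knockouts were -0.12 and 0.10, against -0.11 and 0.08 between the 2 parental libraries. Lingo2 transcripts were undetected in every library, so the transcript levels do not tell the Lingo1 and Lingo2 knockouts apart by their targets.

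Against the Lingo3 knockout 199 genes passed (1.65%), 41 higher (0.339%) and 158 lower (1.31%) in the Lingo1 knockout. The largest bounds of ranked genes on the higher side were those of Tnc, the tenascin C gene, at 6.53-fold (5.6 to 7.65), the basement membrane collagen gene Col4a6 at 5.7-fold (5.19 to 6.27), and Mcpt2 at 6.1-fold (4.94 to 7.6). Cma1, Mcpt1, Pcsk5, Igfbp5 and the adenylate kinase gene Ak5 followed, so that the mast cell proteases were higher than in the Lingo3 knockout as well as in the parental line. On the lower side Apol8 led the ranked genes at 25.9-fold (13.5 to 57.4), followed by the alkaline phosphatase gene Alpl at 10.8-fold (7.45 to 16.1), Sfrp1 at 11.4-fold (7.29 to 18.7), the channel subunit gene Cacng4 at 11.2-fold (6.36 to 21.5) and Bgn at 6.58-fold (5.94 to 7.31). Bgn and Sfrp1 thus lay above the parental level in the Lingo1 knockout and further above it in the Lingo3 knockout. Apol8, Alpl, Sfrp1 and Cacng4 reached the filter only through the Lingo3 knockout. They stood at 8.43, 12, 8.63 and 5.25 CPM there and at 0.325, 1.12, 0.758 and 0.469 CPM in the Lingo1 knockout. Such genes had to differ in this direction, so their calls and the number of lower genes are not independent of the filter.

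Against the TROY knockout 26 genes passed (0.215%), 24 higher (0.199%) and 2 lower (0.0166%). Ltbp2, a latent TGF-beta binding protein gene, was 8.51-fold higher (3.63 to 24.3), with 47 counts in the Lingo1 and 6 in the TROY knockout, and Dysf, the dysferlin gene of membrane repair, 3.48-fold higher (2.64 to 4.63). Bgn was 2.83-fold higher (2.35 to 3.42), Pdgfrb 4.34-fold higher (2.33 to 8.7), Galnt15 3.87-fold higher (2.19 to 7.22) and Sez6l 2.75-fold higher (1.92 to 4.01). Several of the largest rises over the parental line were therefore larger in the Lingo1 than in the TROY knockout. Ltbp2, Pdgfrb and Galnt15 reached the filter only through the Lingo3 knockout, with 10.7, 11.4 and 4.53 CPM there. In the Lingo1 knockout they stood at 1.7, 1.88 and 2.06 CPM. The 2 lower genes were CT010467.1 and the microRNA-annotated gene Gm23935, both named after their values were seen.

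Called genes were spread over the chromosomes, whose median log2 ratios ran from -0.04 on chromosome 13 to 0.06 on chromosome 14 over the autosomes and X. In 27 places adjacent tested genes were called in the same direction, 58 genes in all, 19 runs higher and 8 lower. Untested genes may lie between such neighbours, and similar or overlapping genes may share reads. Whether the runs exceed those of calls placed at random was not tested. The longest run was Rgs3, Orm1, Orm3 and Orm2 on chromosome 4 (62559847 to 63365878, GRCm38). Mcpt1, Mcpt2 and Gzme on chromosome 14 (56017971 to 56120625) and Lad1, Tnnt2 and Pkp1 on chromosome 1 (135818598 to 135919207) were also higher together. Of pairs, Ereg and Areg lay at chromosome 5 (91074622 to 91148432), Muc5ac and Muc5b at chromosome 7 (141788972 to 141873084), and the lower pair Malat1 and Neat1 at chromosome 19 (5795690 to 5845478). Rgs3, Gzme, Lad1 and Tnnt2 are named for their position, after their values were seen.

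Replacing the scratched by the unscratched parental library gave 383 genes past the rule (3.17%), 217 higher (1.8%) and 166 lower (1.37%). Of the 235 higher genes 165 passed against both controls (70.2%) and all 235 had a ratio above 1 against both. Of the 202 lower genes 141 passed against both (69.8%), and 199 kept their sign. The other 3 were Vwf and the pseudogenes Gm12912 and Gm13456, named after their values were seen, which had passed the rule between the parental libraries as higher in the scratched one. Both comparisons share the Lingo1 knockout library. Some calls held with a fold that moved by over 1.5 times: against the unscratched library the ratio was 3.84 (3.07 to 4.83) for Dusp4, 9.93 (7.48 to 13.4) for Sprr2a3, 5.82 (2.71 to 14.3) for Gjb5 and 8.1 (3.46 to 23.2) for Notch1. With 1 to 3 counts in the unscratched library, it was 17.9 (5.8 to 89.7) for Pdgfrb, 21.7 (3.49 to 898) for Sfrp1, 9.83 (2.37 to 87) for Stra6 and 87.9 (15.4 to 3513) for Cdh4. Lists moved too: 4 neuronal genes and 2 tumour necrosis factor receptor and ligand genes were higher against the unscratched library, and the median log2 ratio was 0.03 in place of 0.16 for axon guidance genes and 0.17 in place of 0.43 for type II genes.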

How the data were processed

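The authors deposited raw read counts per gene for 6 libraries, 1 per group. The submitters' processing notes name Trimmomatic 0.39, STAR, HTSeq, edgeR and the genome build GRCm38. The sources used here do not give the annotation release, the strand setting or the other versions. RPKM values and their log2 ratios, which the authors deposited in another table, served as a check: over 10321 genes with at least 100 counts these ratios differed from those computed here by a median of -0.0081 and at most 0.0131 log2 units.

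Counts were scaled with TMM factors (edgeR 4.0.16, R 4.3.3) over all 6 libraries. HTSeq summary lines were left out. GENCODE M21 matched 45229 of 46078 identifiers. Genes averaging at least 1 CPM were tested by the size rule. The rule was checked on simulated counts with counting error only, so the check does not cover variation between cultures. With 0 counts in 1 library the fold was taken against 3 counts. DESeq2 1.42.0 gave an alternative scaling.

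Named genes were the 4 targeted genes, the 15 with the largest bound nearest to 1 in each direction (8 against another knockout), and up to 5 members per list and direction, or the 2 most abundant where none passed. Genes named outside this rule as values beside a list are members of that list. The comparison, its gene lists and the markers were chosen with earlier results of these data known. Some named items are not reported here.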

Additional observations from a re-analysis of the deposited data

How the results depend on the processing

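No paired analysis was possible because each group has 1 library, and for the same reason no library could be left out within a group. The count of 437 genes past the size rule (235 higher, 202 lower) was 434 with total counts as the scaling, 440 with DESeq2 size factors, 437 with TMM factors from both libraries alone, 383 with the unscratched library as control and 306 where both parental libraries had to give the call. It was 783 (483 lower) with no filter on low levels and 207 (139 higher, 68 lower) with a mean of at least 5 CPM. It was 143 (73 higher, 70 lower) with a fold of at least 3 and a bound beyond 2, and 1179 (673 higher, 506 lower) with the looser rule of a fold of at least 1.5. Among protein-coding genes alone 124 were lower. The share of called genes that were higher was 53.8% with the TMM scaling, 45.6% with total counts, 38.3% with no filter, 67.2% at 5 CPM and 64.9% in protein-coding genes. Of 119 named genes past the rule, 119 stayed past it with DESeq2 size factors and 108 with total counts, where Mcpt2, Areg, Id1, Muc5b, Col8a2, Snai1, Plxnb3, H2-DMa, C1s1, Scd1 and Elovl6 did not pass. With the unscratched control 100 stayed past it, 18 did not and Vwf changed sign, to a log2 ratio of 0.14. The same control moved the medians of 24 of 59 lists by at least 0.1 log2 units and the number of members called by over 1.5 times in 12. The log2 ratios of the authors' deposited table had the same direction in the 110 of these genes it lists. Intervals cover counting error only, so variation between cultures is not in any value here.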

Other observations

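Genes that process RNA in the nucleus were among the lower protein-coding genes. They were picked after their values were seen, so they are described without being set against other genes. Rsrp1, an arginine and serine rich protein gene, stood at 343 and 329.8 CPM in the unscratched and scratched parental libraries, 103 in the Lingo1 knockout, and 124, 78.9 and 114 in the Lingo2, Lingo3 and TROY knockouts, and was 3.21-fold lower (3.08 to 3.35). Ccnl2, a cyclin of splicing speckles, was 2.31-fold lower (2.18 to 2.44), and the spliceosome-associated genes Luc7l3, Pnisr, Zrsr1 and Rbm4b were 2.05-fold lower (1.96 to 2.14), 2.02-fold lower (1.9 to 2.14), 2.22-fold lower (1.64 to 3.05) and 2.18-fold lower (1.94 to 2.45). Pabpn1, the nuclear poly(A) binding protein gene, was 2.41-fold lower (2.07 to 2.81). The splicing kinase genes Clk1 and Clk4 had ratios of 0.511 (0.477 to 0.547) and 0.535 (0.489 to 0.584) and the splicing factor gene Srsf5 one of 0.852 (0.82 to 0.885), none past the rule. Against the unscratched parental library Luc7l3, Pnisr and Rbm4b did not pass, at ratios of 0.506 (0.484 to 0.528), 0.526 (0.495 to 0.559) and 0.504 (0.446 to 0.567). The share of reads in no counted feature, 5.44% in the Lingo1 knockout against 8.02% in the scratched parental library, moved with them and its part was not tested.

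Signalling and contractile genes outside the lists, also picked after their values were seen, moved both ways. Edn1, which encodes the vasoconstrictor endothelin 1, was 2.46-fold higher (2.19 to 2.77), the clock gene Nr1d1 2.73-fold higher (2.44 to 3.06), and Adgrf5, an adhesion receptor gene of surfactant homeostasis, 3.8-fold higher (3.26 to 4.45). Mylk, the myosin light chain kinase gene, was 4.89-fold higher (3.29 to 7.47), and Tnnt2, a cardiac troponin gene, 3.43-fold higher (3.13 to 3.77). The Popeye domain genes Bves and Popdc3, neighbours on chromosome 10, were 2.24-fold lower (2.01 to 2.49) and 2.21-fold lower (1.87 to 2.63). Gabre and Gabbr1, of GABA receptors, were 3.17-fold lower (2.74 to 3.67) and 2.2-fold lower (1.93 to 2.51).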
